A study of Mus musculus with 16 samples.

Results

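The genes described here are 8 that mark the RNA of leukocytes, taken as a gauge of how much such RNA the sorted lung cells of each mouse carried. They are Tyrobp and Fcer1g, which encode adaptor proteins, Ptprc, which encodes the leukocyte common antigen CD45, Itgb2, Itgam and Itgax, which encode leukocyte integrin chains, and Laptm5 and Coro1a, which encode a lysosomal and an actin-binding protein of blood cells. The members were chosen by these symbols from their measured FPKM in the same mice, so the values below are a description of them. Every comparison was in view when they were chosen, so where members called by a fit over all genes are counted, the count stands beside the share of all genes called and nothing is read from it. The 8 symbols belong to 9 of the 49452 Ensembl genes in the tables, since Itgam was listed under 2 identifiers.

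RNA was sequenced from tdTomato-positive cells of the left lung lobe of 16 mice, 4 in each of 4 groups. Acta2-tdT mice (Acta2-CreERT2; tdTomatoflox) were given tamoxifen in the food at 400 mg/kg from day 5 after the agent, and Pdgfra-tdT mice (Pdgfra-CreERT2; tdTomatoflox) received 5 injections of 3 mg tamoxifen at 6 weeks of age. Each line received either saline or bleomycin, an agent that injures the lung and leads to fibrosis, and the mice were 11 weeks of age at day 14. The label is carried by any cell in which the Acta2 or Pdgfra promoter drove Cre while tamoxifen was present, together with its progeny, and all 4 groups carried tamoxifen and the reporter. Line and tamoxifen schedule went together and cannot be told apart.

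Tyrobp (DAP12) and Fcer1g (the common Fc receptor gamma chain) carry an immunoreceptor tyrosine-based activation motif, or ITAM, in their tails, and pass signals from Fc receptors, TREM and C-type lectin receptors to the kinase Syk in myeloid cells. CD45 is a tyrosine phosphatase found on all nucleated cells of the blood lineages, and the Itgb2 chain (CD18) pairs with Itgam (CD11b) on neutrophils, monocytes and macrophages or with Itgax (CD11c) on dendritic cells and alveolar macrophages. Mesenchymal cells such as fibroblasts and smooth muscle are not known as a source of these transcripts.

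The positions below are those of the tables, on mm10 (GRCm38). Tyrobp lies at chr7:30413788-30417577, Fcer1g at chr1:171229572-171234365 and Ptprc at chr1:138063407-138175306. Itgb2 lies at chr10:77530252-77565686, Laptm5 at chr4:130913125-130936141 and Coro1a at chr7:126699773-126704816. Itgam at chr7:128062640-128118491 and Itgax at chr7:128129547-128150657 are neighbours, and the second identifier of Itgam covers chr7:128062683-128128160, most of the first and the gap after it. Coro1a overlaps the end of Bola2, a gene on the opposite strand, and the reads did not keep strand, so reads from that overlap cannot be told apart.

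Promoter windows are shown of Laptm5 and Fcer1g, the members closest to the mean of the others over the mice as described at the end, and of the neighbours Itgam and Itgax, to compare their upstream letters. RefSeq windows of GRCm38.p6, from 250 bases before to 50 bases after a start site, were given for 6 of the 8 genes, with 8 windows in all, and for Tyrobp and Itgb2 there was none. Capitals mark GAGGAA or its reverse complement, the core letters of sites bound by PU.1, the myeloid factor encoded by Spi1.
Itgam, chr7:128062390-128062689, plus strand: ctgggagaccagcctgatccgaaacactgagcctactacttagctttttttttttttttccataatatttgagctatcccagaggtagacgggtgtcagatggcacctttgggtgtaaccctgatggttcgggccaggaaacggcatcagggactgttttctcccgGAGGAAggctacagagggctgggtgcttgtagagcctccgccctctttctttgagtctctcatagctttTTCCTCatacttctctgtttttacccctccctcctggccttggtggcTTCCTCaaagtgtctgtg
Itgax, chr7:128129300-128129599, plus strand: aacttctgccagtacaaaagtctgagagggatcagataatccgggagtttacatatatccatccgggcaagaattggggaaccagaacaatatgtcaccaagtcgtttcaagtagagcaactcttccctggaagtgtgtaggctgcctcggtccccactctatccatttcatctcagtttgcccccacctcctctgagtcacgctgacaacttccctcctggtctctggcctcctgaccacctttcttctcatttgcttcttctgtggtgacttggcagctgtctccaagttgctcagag
Laptm5, chr4:130913066-130913365, plus strand: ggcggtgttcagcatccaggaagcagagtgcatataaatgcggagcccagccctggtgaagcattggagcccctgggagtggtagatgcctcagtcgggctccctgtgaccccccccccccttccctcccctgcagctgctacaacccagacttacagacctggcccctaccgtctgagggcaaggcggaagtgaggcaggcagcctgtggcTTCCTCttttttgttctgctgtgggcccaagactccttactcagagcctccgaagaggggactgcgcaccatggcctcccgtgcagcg
Fcer1g, chr1:171234300-171234599, minus strand: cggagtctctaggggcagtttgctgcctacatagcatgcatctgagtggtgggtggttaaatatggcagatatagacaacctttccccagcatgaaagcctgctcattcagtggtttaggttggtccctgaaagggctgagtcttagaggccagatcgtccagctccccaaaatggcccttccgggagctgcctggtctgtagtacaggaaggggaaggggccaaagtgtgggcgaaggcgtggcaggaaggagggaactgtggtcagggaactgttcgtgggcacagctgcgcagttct
The Itgam window held 3 matches, beginning 84 and 15 bases before and at base 33 after the start site, and the Laptm5 window held 1. The Itgax and Fcer1g windows and both Coro1a windows held 0, and 1 of the 2 Ptprc windows held 1. GAGGAA on either strand, which overlapped no other motif searched, was found in 3 of the 8 windows of these genes and in 28.3% of the 32851 windows in the table. TGTGGT, the letters of a RUNX site, was found on the sense strand of Fcer1g and Itgax, and in 16.8% of all windows. These are matches of letters and not sites of binding.

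Before the members are described, 3 features of the mice bear on every value. FPKM were computed for each mouse on its own, and the sum over nuclear protein-coding genes was 231058 to 463127 in Acta2-tdT bleomycin mice against 28512 to 137952 in the other 12 mice. Each comparison is therefore given on FPKM and again after scaling every mouse to the same protein-coding sum of 49122, the median of the 16. The 90th percentile of 1084 olfactory receptor genes, a gauge of background chosen after the values were seen, was 0.348 to 1.48 FPKM in Acta2-tdT bleomycin mice and 1.67 to 2.64 in the others. In Pdgfra-tdT saline mouse 3 and Pdgfra-tdT bleomycin mouse 5, 8 endothelial genes (Pecam1, Cdh5, Tek and 5 others) summed to 0.937% and 0.959% of protein-coding FPKM, against 0.0204% to 0.303% in the other 6 Pdgfra-tdT mice.

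The labelled cell types were met unevenly by their defining genes. Acta2, which encodes alpha smooth muscle actin, was at 139 to 314 FPKM in Acta2-tdT saline mice and at 1229 to 3211 in Acta2-tdT bleomycin mice. Pdgfra was at 2.13 to 3.82 FPKM in Pdgfra-tdT saline mice and at 0.977 to 2.45 in Pdgfra-tdT bleomycin mice, near the background gauge. In Acta2-tdT mice it was at 0.273 to 0.562 FPKM with saline and at 8.01, 2.49, 9.09 and 11.9 FPKM with bleomycin, the latter above every Pdgfra-tdT bleomycin mouse on FPKM. Scaled, it was at 0.529 to 1.26 in Acta2-tdT and 0.873 to 2.33 in Pdgfra-tdT bleomycin mice, and 3 of the 4 Pdgfra-tdT mice lay above all Acta2-tdT mice. Col1a1, a collagen chain made by fibroblasts, was at 13.3 FPKM in Pdgfra-tdT bleomycin mouse 5 and at 0.296 to 0.875 in the other 3 mice of that group.

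The adaptors stood far above the other members in every mouse. Tyrobp made up 37.6% to 69.5% of the members' summed FPKM and Fcer1g 19.6% to 47.9%, together 82.8% to 94.5%. Ptprc made up 0.426% to 5.23% and Itgam 0.0390% to 0.763%. FPKM are per length, so levels of different genes can be set side by side on this scale.

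**Figure D1:**
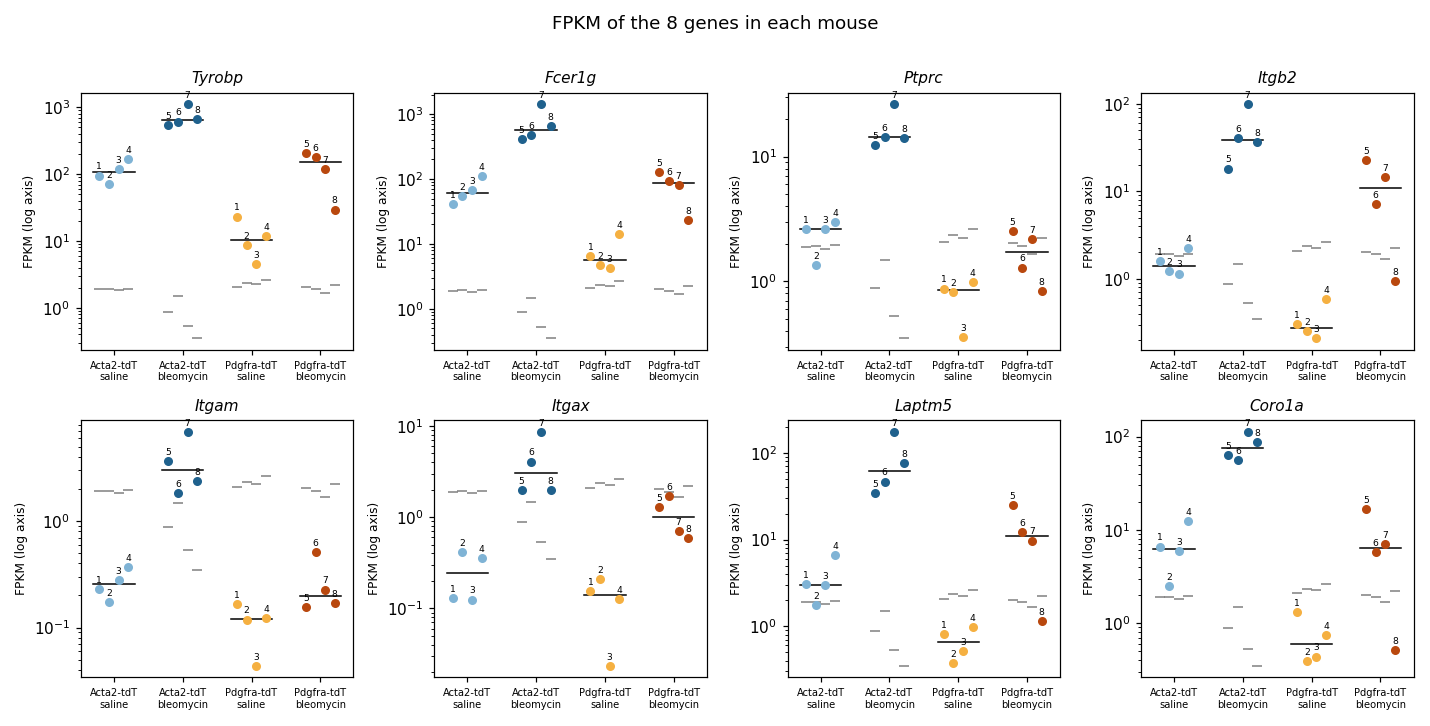
FPKM of the 8 genes on log axes, with 1 numbered point for each mouse in 4 groups of 4 and a black bar at the group median. Grey dashes give the 90th percentile of olfactory receptor genes in the same mouse; Tyrobp and Fcer1g lie above them in all 16 mice, while the other 6 genes lie below them in all 4 Pdgfra-tdT saline mice.

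Tyrobp was at 95.6, 72.0, 120.0 and 168.0 FPKM in Acta2-tdT saline mice 1 to 4, and at 23.2, 8.75, 4.46 and 11.8 FPKM in Pdgfra-tdT saline mice 1 to 4. With bleomycin it was at 547, 613, 1114 and 679 FPKM in Acta2-tdT mice 5 to 8 and at 204, 182, 119 and 29.6 FPKM in Pdgfra-tdT mice 5 to 8. The order of the group medians was Acta2-tdT bleomycin, Pdgfra-tdT bleomycin, Acta2-tdT saline and Pdgfra-tdT saline, and the middle pair overlapped. This order held on FPKM and not after scaling, where the medians were 124 in Acta2-tdT saline mice, 105 in both bleomycin groups and 15.2 in Pdgfra-tdT saline mice.

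Fcer1g had the same order of medians on FPKM. It was at 40.5, 53.9, 68.4 and 111 FPKM in Acta2-tdT saline mice and at 6.54, 4.67, 4.26 and 14.0 FPKM in Pdgfra-tdT saline mice. It reached 407, 474, 1420 and 646 FPKM in Acta2-tdT bleomycin mice and 126, 91.7, 80.4 and 23.1 FPKM in Pdgfra-tdT bleomycin mice. The lowest Pdgfra-tdT bleomycin mouse, mouse 8, lay below all 4 Acta2-tdT saline mice, and the other 3 lay within or above them.

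Ptprc was low in all but 1 group. It was at 2.63, 1.35, 2.64 and 2.99 FPKM in Acta2-tdT saline mice, and at 0.875, 0.815, 0.357 and 0.994 FPKM in Pdgfra-tdT saline mice. Acta2-tdT bleomycin mice had 12.3, 14.4, 26.3 and 14.2 FPKM, and Pdgfra-tdT bleomycin mice had 2.54, 1.29, 2.18 and 0.837 FPKM. The Pdgfra-tdT bleomycin mice overlapped both saline groups, and 2 of them and all 4 Pdgfra-tdT saline mice were below the background gauge.

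Itgb2, the shared integrin beta chain, was at 1.58, 1.22, 1.15 and 2.22 FPKM in Acta2-tdT saline mice and at 0.303, 0.252, 0.208 and 0.589 FPKM in Pdgfra-tdT saline mice. With bleomycin it was at 18.1, 40.04, 98.5 and 36.9 FPKM in Acta2-tdT mice and at 22.9, 7.18, 14.5 and 0.947 FPKM in Pdgfra-tdT mice. Mouse 5 of the Pdgfra-tdT group exceeded the lowest Acta2-tdT bleomycin mouse, so the bleomycin groups overlapped for this gene, and mouse 8 lay below every Acta2-tdT saline mouse.

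The alpha chains were near background outside Acta2-tdT bleomycin mice. Itgam was at 3.63, 1.85, 6.91 and 2.36 FPKM in that group and at 0.175 to 0.368, 0.0437 to 0.165 and 0.156 to 0.514 FPKM in the Acta2-tdT saline, Pdgfra-tdT saline and Pdgfra-tdT bleomycin groups. Itgax was at 1.99, 4.06, 8.66 and 1.97 FPKM in Acta2-tdT bleomycin mice, at 1.30, 1.70, 0.703 and 0.589 FPKM in Pdgfra-tdT bleomycin mice and at 0.0235 to 0.418 FPKM in the 8 saline mice. Both genes were below the background gauge in all 12 mice outside the Acta2-tdT bleomycin group. The second Itgam identifier did not exceed 0.399 FPKM in any mouse.

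Laptm5 was at 3.07, 1.74, 2.97 and 6.56 FPKM in Acta2-tdT saline mice and at 0.804, 0.378, 0.515 and 0.977 FPKM in Pdgfra-tdT saline mice. Acta2-tdT bleomycin mice had 34.1, 46.8, 177 and 76.1 FPKM and Pdgfra-tdT bleomycin mice 25.3, 12.1, 9.76 and 1.15 FPKM. The bleomycin groups did not overlap, and each lay above the saline group of its own line.

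Coro1a was at 6.61, 2.47, 5.94 and 12.5 FPKM in Acta2-tdT saline mice and at 1.33, 0.391, 0.438 and 0.745 FPKM in Pdgfra-tdT saline mice. It was at 63.9, 56.2, 113 and 86.7 FPKM in Acta2-tdT bleomycin mice and at 16.6, 5.74, 6.99 and 0.510 FPKM in Pdgfra-tdT bleomycin mice, where mouse 8 lay within the saline range. Its neighbour Bola2 was at 31.3 to 79.7 FPKM in Acta2-tdT bleomycin mice and 0.234 to 28.7 FPKM in the others, and the share of Bola2 reads in the Coro1a values was not tested.

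On FPKM, libraries stood apart in the same way for most members. Acta2-tdT bleomycin mouse 7 was the highest of the 16 mice for all 8 genes. Within its group, Pdgfra-tdT bleomycin mouse 8 was the lowest for 7 of them, all but Itgam. After scaling, Acta2-tdT bleomycin mouse 7 stayed highest for Fcer1g, Itgam, Laptm5 and Coro1a. Pdgfra-tdT bleomycin mouse 6 was then highest for Tyrobp (180) and Itgax (1.68), Pdgfra-tdT bleomycin mouse 7 for Itgb2 (16.7) and Acta2-tdT saline mouse 1 for Ptprc (3.51). Pdgfra-tdT bleomycin mouse 8 stayed lowest of its group for Tyrobp, Fcer1g, Itgb2, Laptm5 and Coro1a, and mouse 5 was lowest for the others.

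To ask how far the 2 lines differed without injury, the saline groups were compared. All 4 Acta2-tdT mice lay above all 4 Pdgfra-tdT mice for 7 members, all but Itgax. For all genes the share that separated in this way was not computed, so nothing is read from this count. Itgam was below the background gauge in all 8 of these mice, and its groups overlapped after scaling. The ratio of group medians was 10.5 for Tyrobp, 10.9 for Fcer1g and 10.6 for Coro1a, against 3.12 for Ptprc, 5.04 for Itgb2 and 4.58 for Laptm5. All these but Tyrobp and Fcer1g were below the background gauge in all 4 Pdgfra-tdT saline mice, so their ratios are taken over background values. Differences of log2(FPKM + 1), given with their SE, were 3.27 ± 0.54 for Tyrobp, 3.09 ± 0.50 for Fcer1g, 2.06 ± 0.42 for Coro1a and 0.91 ± 0.18 for Itgb2. The median over the 8 was 1.16, beside 0.17 over all 8153 genes tested. The 6 members that reached 1 FPKM in 4 or more of the 8 mice entered the limma fit, and 4 passed its threshold as higher, and 2.72% of all genes did so (0.184% as lower). Ptprc, Itgb2 and Laptm5 reached 1 FPKM in 4 of 4 Acta2-tdT mice and 0 of 4 Pdgfra-tdT mice, so they entered through the group where they are high.

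After scaling the median stayed close and fewer members were called. The scaled median was 1.09 beside 0.02 over all genes, and Fcer1g (2.89 ± 0.59) and Coro1a (1.99 ± 0.42) were called, 2 of 6, with 3.20% of all genes higher and 0.221% lower. The count of 4 on FPKM changed with every mouse left out, 1 at a time, to 0 to 6 calls. It was 0 without any of Acta2-tdT saline mice 1, 3 or 4 or Pdgfra-tdT saline mouse 2. It was 1 without Acta2-tdT saline mouse 2 or Pdgfra-tdT saline mice 1 or 4, and 6 without Pdgfra-tdT saline mouse 3. Calls over all genes moved as well, over a range given in the last section, so nothing is read from this count.

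Between the lines with bleomycin, the members were at higher FPKM in Acta2-tdT mice, and after scaling the groups overlapped for all members but Coro1a. The groups did not overlap on FPKM for 7 members, all but Itgb2. Their protein-coding sums did not overlap either, and the share of all genes without overlap was not computed on either scale. The ratio of medians was 4.29 for Tyrobp, 6.51 for Fcer1g, 5.63 for Laptm5 and 11.8 for Coro1a. Itgam (medians of 2.995 and 0.198 FPKM) and Itgax (3.02 and 1.001 FPKM) were below the background gauge in all 4 Pdgfra-tdT bleomycin mice, and Ptprc in 2 of them. The median difference of log2(FPKM + 1) was 2.71, beside 1.81 over 11995 genes. All 8 members were called higher, where 71.0% of all genes were (8.61% lower), Itgam having passed the filter on low values through the Acta2-tdT mice alone. Without Acta2-tdT bleomycin mouse 7, 4 were called. With 1 mouse left out calls over all genes moved as well, over a range given in the last section, so nothing is read from the 4. After scaling the median was 0.29 beside 0.14 over all genes and 0 of the 8 were called by limma (5453 of all genes had an unadjusted p under 0.05), with 15.8% of all genes higher and 17.6% lower. With all genes scaled to the same sum the median was 1.19 beside 0.68 over all genes, with 3 members called, and with quantile normalization 1.15 beside 0.96, with 2 called. After scaling to the protein-coding sum, Itgb2 (-0.17 ± 0.63) and Itgax (-0.33 ± 0.26) had the opposite sign, and for Tyrobp the groups were at 0.03 ± 0.67.

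**Figure D2:**
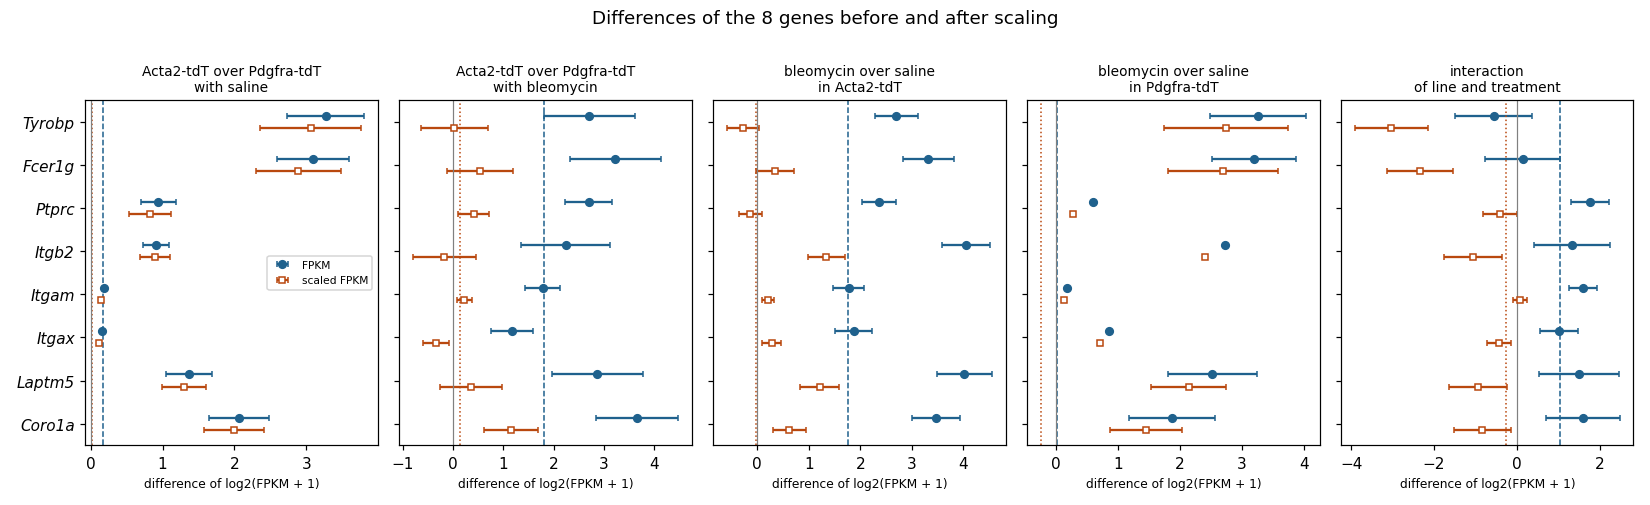
Differences of log2(FPKM + 1) for the 8 genes in 5 comparisons, as FPKM (filled circles) and scaled FPKM (open squares) with SE bars where the gene was tested. Dashed and dotted lines give the median over all tested genes, FPKM and scaled; scaling moves the members from a median of 2.71 to 0.29 between the lines with bleomycin and from 2.19 to 1.80 in Pdgfra-tdT mice.

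To ask what bleomycin went with inside each line, treated and saline mice were compared. In Acta2-tdT mice all 8 members were higher without overlap on FPKM. The protein-coding sums of these groups did not overlap either, and the share of all genes without overlap was not computed. The ratio of medians was 27.5 for Itgb2 and 20.4 for Laptm5, against 5.42 for Ptprc and 6.00 for Tyrobp. With saline Itgb2 was above the background gauge in 1 of 4 mice, Laptm5 and Ptprc in 3 of 4 and Itgam and Itgax in 0, and the last 2 reached 1 FPKM in no saline mouse and so passed the filter on low values through the treated group. The median difference was 3.01, beside 1.76 over 12523 genes, and all 8 were called higher, where 70.4% of all genes were (16.3% lower). After scaling the median was 0.31 beside -0.02, and 2 members were called, where 23.9% of all genes were higher and 32.6% lower. These were Itgb2 (1.34 ± 0.36), at 1.16 to 2.11 scaled FPKM in saline mice and 2.80 to 11.1 in bleomycin mice, and Laptm5 (1.21 ± 0.38). Tyrobp (-0.28 ± 0.31) and Ptprc (-0.13 ± 0.23) turned sign.

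**Figure D3:**
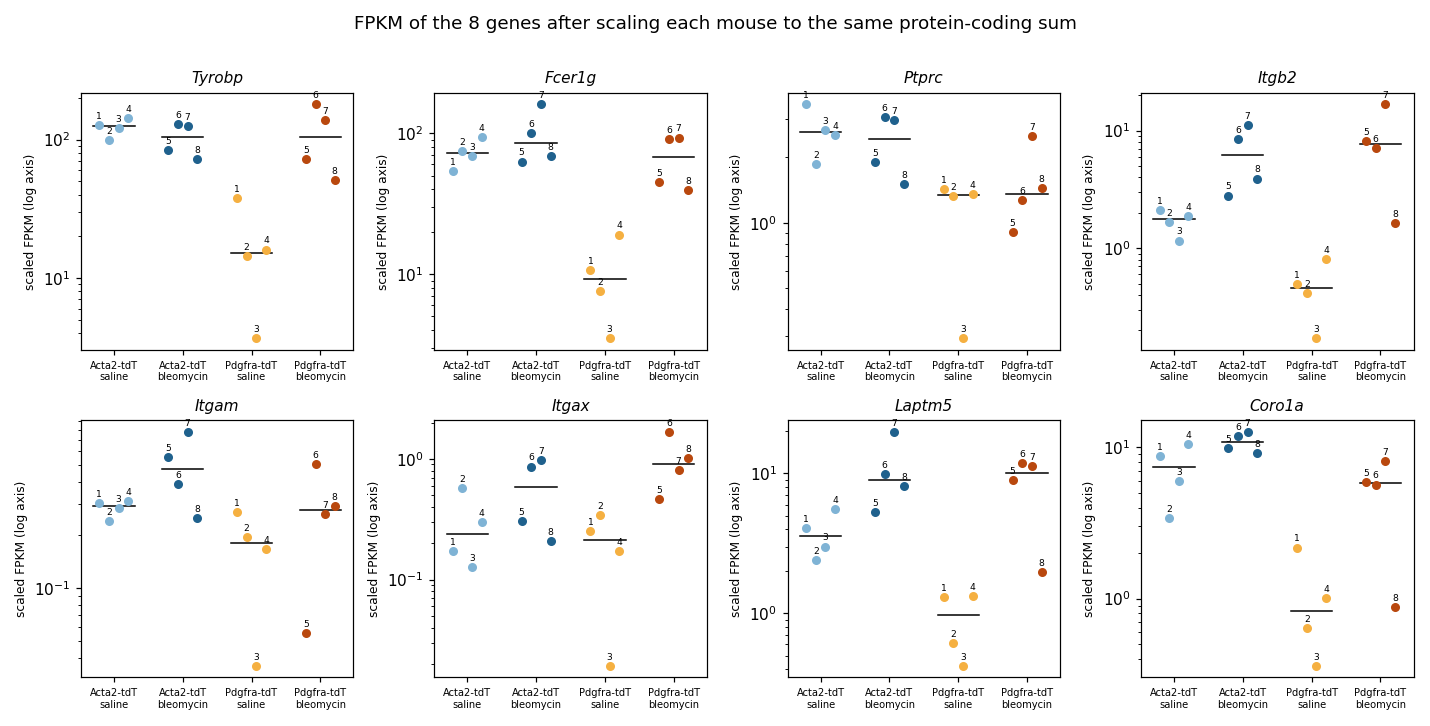
FPKM of the 8 genes after each mouse was scaled to the same nuclear protein-coding sum, on log axes, with 1 numbered point for each mouse and a black bar at the group median. Tyrobp lies at 72.0 to 180 scaled FPKM in 11 of the 12 mice outside the Pdgfra-tdT saline group, with Pdgfra-tdT bleomycin mouse 8 at 50.9, and at 3.66 to 38.1 in the Pdgfra-tdT saline mice.

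In Pdgfra-tdT mice the members were at higher medians with bleomycin, with wide spread, and 0 were called. The ratio of medians was 14.7 for Tyrobp and 15.4 for Fcer1g. The other 6 were below the background gauge in all 4 saline mice, so their medians are given in place of a ratio. With saline and bleomycin these were 0.278 and 10.8 FPKM for Itgb2, 0.659 and 10.9 for Laptm5 and 0.591 and 6.37 for Coro1a. They were 0.845 and 1.73 FPKM for Ptprc, 0.120 and 0.198 for Itgam and 0.140 and 1.001 for Itgax. For 5 members (Tyrobp, Fcer1g, Itgb2, Itgax and Laptm5) the groups did not overlap, on FPKM and scaled, and for Ptprc, Itgam and Coro1a they overlapped. Itgax was below the background gauge in all 8 mice. In bleomycin mouse 8 Itgb2 (0.947 FPKM) and Laptm5 (1.15 FPKM) were also below its gauge of 2.22. How many of all genes separated in this way was not computed. The median difference was 2.19, beside 0.02 over 7275 genes, and 1.80 beside -0.25 after scaling. Of the 4 members that passed the filter on low values, Laptm5 through the treated mice alone, 0 were called on either scale. Over all genes 0.0275% were called higher and 0.0962% lower (scaled, 0.0275% and 0.110%). By limma 312 of all genes had an unadjusted p under 0.05 on FPKM and 324 after scaling. Of 51 genes in the lists described below that were tested here, 12 had an unadjusted p under 0.05 and 0 were called. Leaving out Pdgfra-tdT bleomycin mouse 8 gave 2 calls, and leaving out both libraries with the endothelial genes gave 0 calls and a median of 1.63. Calls over all genes with 1 mouse left out are given as a range in the last section, so nothing is read from the 2.

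The difference between the lines in their response, the interaction, was taken over all 16 mice. It was -0.56 ± 0.93 for Tyrobp and 0.14 ± 0.91 for Fcer1g, against 1.77 ± 0.45 for Ptprc and 1.60 ± 0.35 for Itgam, where a positive value means a larger increase in Acta2-tdT mice. The latter 2 of the 8 members were called, where 36.6% of all 16605 genes were higher and 3.20% lower, and the median over the members was 1.41 beside 1.05. Itgam reached 1 FPKM in the 4 Acta2-tdT bleomycin mice and in 0 of the other 12, so it entered this fit through the group where it is high. After scaling the median was -0.88 beside -0.25, 0 members were called by limma (3165 of all genes had an unadjusted p under 0.05), and 1.33% of all genes were higher and 0.891% lower. Scaled, Tyrobp was at -3.03 ± 0.89 and Fcer1g at -2.35 ± 0.80, the lowest of the 8. The Ptprc value, called on FPKM, turned negative after scaling, as given in the last section.

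As a share of protein-coding FPKM, the summed members set 1 group apart from 3. They made up 0.408%, 0.374%, 0.415% and 0.526% in Acta2-tdT saline mice and 0.342%, 0.541%, 0.680% and 0.333% in Acta2-tdT bleomycin mice, which overlapped. They made up 0.111%, 0.0518%, 0.0172% and 0.0813% in Pdgfra-tdT saline mice and 0.289%, 0.609%, 0.550% and 0.199% in Pdgfra-tdT bleomycin mice, which did not. The closeness of the Acta2-tdT groups depended on the denominator. Their means with saline and bleomycin were 0.431% and 0.474% of protein-coding FPKM, and 0.0747% and 0.187% of all genes. Over all genes the Pdgfra-tdT means were 0.00949% and 0.0742%. Fewer leukocytes and less leukocyte RNA per cell cannot be told apart in these pools, and the same share can arise from more or less RNA of the labelled cells.

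The 14 mesenchymal genes, Acta2, Pdgfra, Col1a1, Col1a2, Col3a1, Pdgfrb, Tagln, Myh11, Des, Tcf21, Dcn, Lum, Npnt and Cspg4, were summed beside that share. Acta2 gave 139 of their 183 FPKM in Acta2-tdT saline mouse 1, so the list is not neutral between the lines. Tyrobp and Fcer1g made up 82.8% to 94.5% of the members' sum, so few genes weigh on either side. The 14 genes made up 0.497% to 0.689% in Acta2-tdT saline mice and 1.08% to 1.53% in Acta2-tdT bleomycin mice, with at least 8 of 14 above the background gauge in each mouse. They made up 0.0371% to 0.118% in Pdgfra-tdT saline mice and 0.0139% to 0.133% in Pdgfra-tdT bleomycin mice, where 0 to 8 of 14 were above it. The 8 leukocyte genes exceeded the 14 mesenchymal genes in 4 of 4 Pdgfra-tdT bleomycin mice, in 1 of 4 Pdgfra-tdT saline mice and in 0 of 8 Acta2-tdT mice. In Pdgfra-tdT saline mice 2 and 4 the sums were nearly equal, at 0.0518% against 0.0538% and 0.0813% against 0.0814%.

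**Figure D4:**
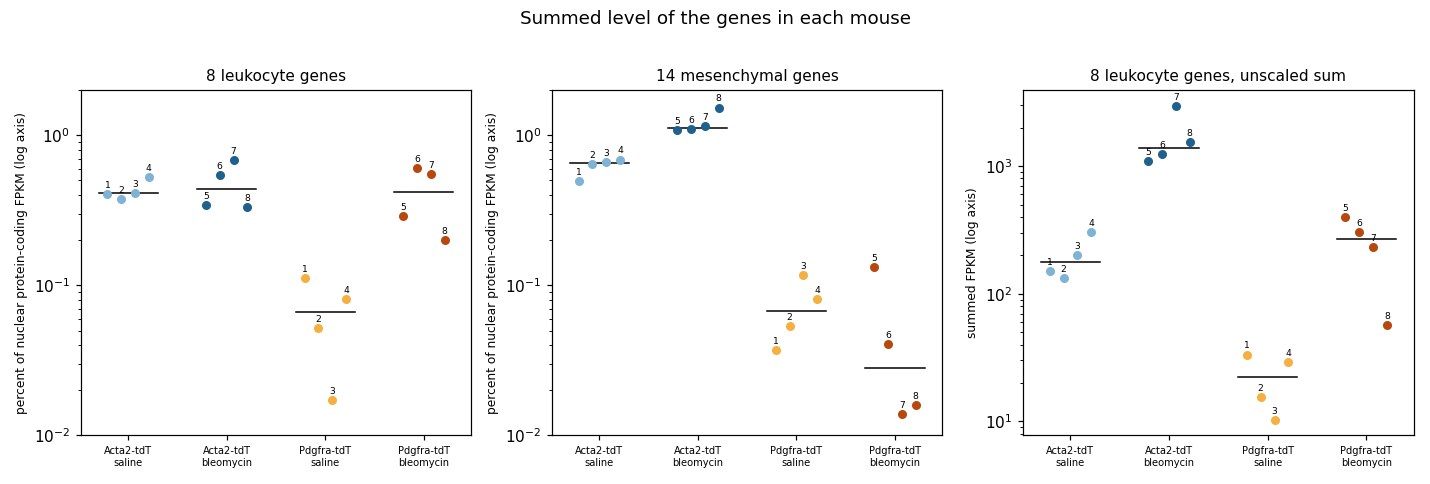
Summed FPKM of the 8 leukocyte genes and of 14 mesenchymal genes as a percent of nuclear protein-coding FPKM, and the unscaled sum of the 8, on log axes with 1 numbered point for each mouse and a bar at the median. The leukocyte share is 0.199% to 0.680% in 3 groups and 0.0172% to 0.111% in Pdgfra-tdT saline mice.

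Ratios between members within a mouse do not depend on the scaling, and their make-up differed between groups. Itgb2 was at 0.434 to 0.903 times Ptprc in Acta2-tdT saline mice and at 1.48 to 3.75 times in Acta2-tdT bleomycin mice. In saline-treated Pdgfra-tdT mice the ratio was 0.310 to 0.593, and in those given bleomycin 1.13 to 8.99, so treated and saline mice did not overlap in either line. Laptm5 to Ptprc moved likewise in Acta2-tdT mice, from 1.13 to 2.196 with saline to 2.77 to 6.72 with bleomycin, while in Pdgfra-tdT mice (0.464 to 1.44 and 1.38 to 9.95) the ranges overlapped. Tyrobp to Ptprc was 36.3 to 56.3 in Acta2-tdT saline mice and 42.4 to 47.9 in Acta2-tdT bleomycin mice, 10.7 to 26.5 in Pdgfra-tdT saline mice and 35.3 to 141 in Pdgfra-tdT bleomycin mice. Itgam to Itgax was 0.120 to 0.323 in Pdgfra-tdT bleomycin mice and 0.417 to 2.25 in the other 12, but both genes were below the background gauge there. Ptprc and Itgb2 were below it in all Pdgfra-tdT saline mice as well, and Itgb2 was above it in 1 of 4 Acta2-tdT saline mice. In Pdgfra-tdT bleomycin mice Ptprc was above it in 2 of 4 and Itgb2 in 3 of 4, so the ratios to Ptprc rest in part on background values in both lines.

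The genes of other leukocyte types were then read beside the members, to see which accompanied them in each group. S100a8, a calprotectin chain abundant in neutrophils, was at 4.32 to 7.44 times Tyrobp in Acta2-tdT saline mice and at 0.628 to 6.53 times in Acta2-tdT bleomycin mice. It was at 0.921 to 2.49 times in Pdgfra-tdT saline mice and at 0.0753 to 0.378 times in Pdgfra-tdT bleomycin mice. Lyz2, lysozyme of macrophages and other myeloid cells, ran the other way, at 0.499 to 1.04, 1.79 to 3.57, 2.995 to 5.46 and 8.35 to 14.0 times Tyrobp in the same 4 groups, of which Acta2-tdT bleomycin and Pdgfra-tdT saline mice overlapped. These partner ratios were chosen after the values were seen.

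**Figure D5:**
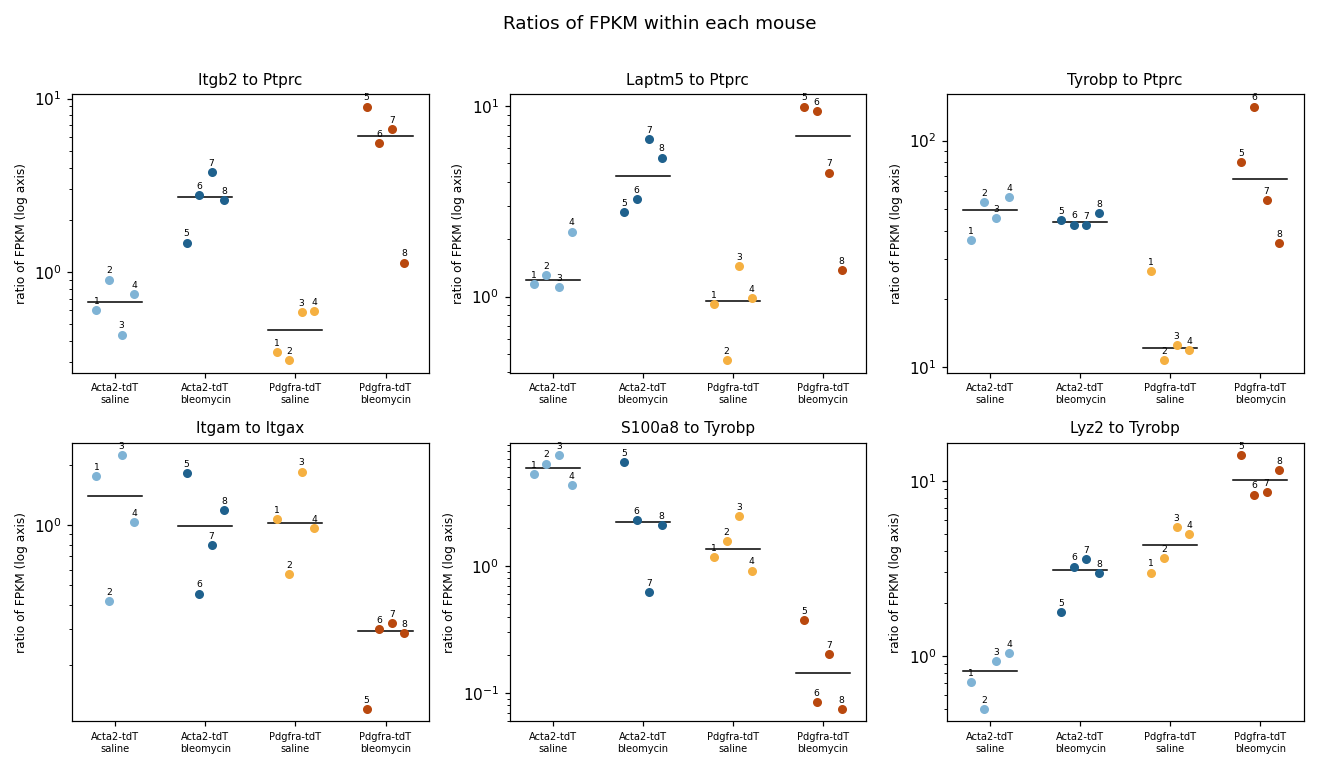
Ratios of FPKM within each mouse on log axes, with 1 numbered point for each mouse and a bar at the group median. Itgb2 to Ptprc is higher in both bleomycin groups than in the saline group of the same line, and Lyz2 to Tyrobp is highest in Pdgfra-tdT bleomycin mice (8.35 to 14.0). By group median S100a8 to Tyrobp is highest in Acta2-tdT saline mice (4.32 to 7.44), with Acta2-tdT bleomycin mouse 5 inside their range at 6.53.

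Neutrophil genes accompanied the members of Acta2-tdT saline mice. The 10 listed neutrophil genes summed to 2.09% to 3.08% of protein-coding FPKM in that group, 0.271% to 1.81% in Acta2-tdT bleomycin mice and 0.0370% to 0.159% in the 8 Pdgfra-tdT mice. S100a8 was at 460 to 892 FPKM in Acta2-tdT saline mice and 10.9 to 27.2 in Pdgfra-tdT saline mice, a difference of 5.32 ± 0.42 (adjusted p = 0.001142). S100a9, its partner, differed by 5.14 ± 0.41 (adjusted p = 0.001142), and 3 of 6 tested genes of the list were higher, where 2.72% of all genes were, these and Retnlg, which is named after its values were seen. In Acta2-tdT mice 7 of 9 tested neutrophil genes were higher with bleomycin on FPKM, where 70.4% of all genes were. After scaling 0 were higher and 5 lower, where 23.9% and 32.6% of all genes were: S100a8 (-1.72 ± 0.55), S100a9 (-1.62 ± 0.59), Csf3r (-0.92 ± 0.23), Retnlg and Cxcr2. In Pdgfra-tdT mice 0 of 6 tested were called, and S100a8 differed by 0.20 ± 0.94.

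In Acta2-tdT mice all 9 listed macrophage and monocyte genes were higher with bleomycin on FPKM, beside the 70.4% of all genes, and 4 of 9 after scaling, beside 23.9%: Csf1r, the receptor of a macrophage growth factor (1.41 ± 0.41, adjusted p = 0.0157), Cd68, a lysosomal glycoprotein (2.02 ± 0.56, adjusted p = 0.01206), Lyz2 (1.58 ± 0.47) and Cx3cr1. The list summed to 0.350% to 1.08% of protein-coding FPKM in Acta2-tdT bleomycin mice and 1.22% to 3.16% in Pdgfra-tdT bleomycin mice, against 0.0507% to 0.357% in the 8 saline mice, most of it Lyz2. In Pdgfra-tdT mice 0 of 3 tested genes were called, with Lyz2 at 24.3 to 69.5 FPKM with saline and 342 to 2861 with bleomycin (4.69 ± 0.70, adjusted p = 0.09673). Between the lines with bleomycin and after scaling, 3 of the 9 were higher in Acta2-tdT mice and 1 lower, beside 15.8% and 17.6% of all genes. Csf1r was higher in Acta2-tdT mice (1.72 ± 0.46, adjusted p = 0.01829) and Lyz2 lower (-1.86 ± 0.65, adjusted p = 0.04818). Of the alveolar macrophage genes, Chil3 was at 34.6 to 232 FPKM in Pdgfra-tdT bleomycin mice 5 to 7 and 12.5 in mouse 8, against 1.69 to 4.82 with saline, and Marco was at 0.408 to 26.5 with bleomycin. In Acta2-tdT mice Chil3 was at 0.890 to 18.0 FPKM with saline and 86.9 to 262 with bleomycin. There 2 of 2 tested genes of that list were called higher, 1 of them after scaling, and in Pdgfra-tdT mice 0 of 2.

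Lymphocyte and mast cell genes varied between mice. Cd3e, a chain of the T cell receptor complex, did not exceed 0.585 FPKM in any mouse, and the mast cell protease Cpa3 did not exceed 0.817 FPKM. Other genes of the same lists, named after their values were seen, were higher: Trbc2 reached 8.69 FPKM in Acta2-tdT bleomycin mouse 6, Trac 7.08 in Acta2-tdT bleomycin mouse 8 and Cd2 7.97 in Pdgfra-tdT bleomycin mouse 5. Kit was at 30.04 FPKM in Pdgfra-tdT bleomycin mouse 5 and 13.7 in Pdgfra-tdT saline mouse 3, the libraries with the endothelial genes, and at 0.0892 to 2.38 in the other 14 mice. Of 8 B cell genes 0 to 3 were above the background gauge in Acta2-tdT saline mice, 1 to 5 in Acta2-tdT bleomycin mice and 0 in Pdgfra-tdT mice. Ighm, the heavy chain of immunoglobulin M, reached 24.7 and 26.3 FPKM in Acta2-tdT saline mouse 4 and Acta2-tdT bleomycin mouse 6. Of 8 NK cell genes 0 or 1 were above it in Acta2-tdT saline mice, 0 to 3 in Acta2-tdT bleomycin mice and 0 in Pdgfra-tdT mice, and the granzyme Gzma reached 6.79 FPKM in Acta2-tdT saline mouse 1. The T cell list had 0 or 1 of 11 genes above it in saline mice and 0 to 9 in bleomycin mice, with the most in the Acta2-tdT group, whose gauge was lowest. The platelet factor Pf4 was at 7.94 to 53.3 FPKM in Acta2-tdT saline mice and 109 to 340 in Acta2-tdT bleomycin mice. The other listed platelet genes, Ppbp, Itga2b, Gp9 and Gp1bb, did not exceed 1.54, 4.55, 1.16 and 5.73 FPKM in any mouse. The globin Hbb-bs reached 114 FPKM in Pdgfra-tdT bleomycin mouse 6. Of 10 epithelial genes, Sftpc was at 0.615 to 221 FPKM over the 16 mice, and Sftpa1, Krt8 and Ager reached 34.3, 27.9 and 28.5 FPKM. Epcam, Cdh1, Sftpb, Nkx2-1 and Foxj1 did not exceed 1.40, 1.28, 2.365, 0.424 and 0.0624 FPKM in any mouse. Scgb1a1, a secretory protein of club cells, was at 42.8 to 767 FPKM in Acta2-tdT saline mice, 266 to 1516 in Acta2-tdT bleomycin mice and 23.6 to 215 in Pdgfra-tdT mice. The epithelial list summed to 1.62% of protein-coding FPKM in Acta2-tdT saline mouse 3, where Scgb1a1 gave 767 of the list's 787.5 FPKM. It summed to 0.04999% to 0.775% in the other 15 mice. The part of these cells in the members' values was not tested.

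The pathway around the adaptors was read from lists of receptors and signalling genes. Of 13 receptors that use Tyrobp or Fcer1g, 10 of 11 tested were higher with bleomycin in Acta2-tdT mice (70.4% of all genes), and 4 after scaling (23.9%), with 1 lower (32.6%). Those 4 were Trem2, a lipid-sensing receptor of macrophages (2.13 ± 0.41), the Fc gamma receptors Fcgr1 (1.07 ± 0.17) and Fcgr3 (1.18 ± 0.43), and Clec4n, a lectin receptor; Siglech was the lower one. Trem2 was at 1.05 to 5.39 FPKM in Acta2-tdT saline mice, 43.6 to 203 in Acta2-tdT bleomycin mice, 0.356 to 1.505 in Pdgfra-tdT saline mice and 2.56 to 41.7 in Pdgfra-tdT bleomycin mice. Against the same shares, 10 of 10 tested of 11 signalling genes were higher in Acta2-tdT mice with bleomycin, and 0 after scaling, where Syk was the 1 lower gene (-0.34 ± 0.11). Ptpn6, the phosphatase SHP-1, was higher in Acta2-tdT than in Pdgfra-tdT bleomycin mice on both scales (4.18 ± 0.63, and 1.70 ± 0.46 scaled, adjusted p = 0.01886). In Pdgfra-tdT mice 0 genes of either list were called.

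General leukocyte genes were mixed. Cd84, a receptor of the SLAM family named after its values were seen, was at 5.56 to 7.34 FPKM in Acta2-tdT saline mice and 3.35 to 6.27 in Pdgfra-tdT saline mice. Cd52, a small surface glycoprotein, was at 45.6 to 94.3 FPKM in Acta2-tdT saline mice and 3.04 to 7.21 in Pdgfra-tdT saline mice (3.47 ± 0.41, adjusted p = 0.00464), and 3 of 5 tested genes of this list, Cd52, Spi1 and Cd37, were higher, beside 2.72% of all genes. With bleomycin in Acta2-tdT mice 9 of 10 were higher, beside 70.4% of all genes, and after scaling 2 were higher, beside 23.9%, Cd53 (1.03 ± 0.28) and Spi1 (0.82 ± 0.32), and 1, Ptprcap, lower. Of the leukocyte cytoskeleton genes, read against the same shares, 6 of 6 tested were higher, 2 of them after scaling, Lcp1 (0.90 ± 0.23) and Parvg. Was was below 1.46 FPKM in every mouse. Among other leukocyte integrin genes, Fermt3, the kindlin that activates beta chains, was higher in Acta2-tdT mice with bleomycin on both scales (2.34 ± 0.37, and 0.47 ± 0.17 scaled), as was Skap2, while Itga4 was lower on both (-0.54 ± 0.21, and -1.46 ± 0.15 scaled). Itgal, the third partner of Itgb2, was higher on FPKM (1.08 ± 0.18) and lower scaled (-0.40 ± 0.11).

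Relatives of the members that are not restricted to leukocytes were read beside them. In Acta2-tdT mice 13 of 13 tested relatives were higher with bleomycin, where 70.4% of all genes were, and 5 after scaling, where 23.9% were: Coro1b (1.61 ± 0.31), Coro1c (1.55 ± 0.21), Itgb1 (1.59 ± 0.24), Itgb5 (1.07 ± 0.22) and Itga5 (2.77 ± 0.23). Itga1 and Itga8 were lower scaled. Between the lines with bleomycin 4 of 14 stayed higher in Acta2-tdT mice after scaling, Coro1c, Itgb1, Itgb5 and Itga5, where 15.8% of all genes did. Itgb1, the common integrin beta chain, was at 2.72 to 3.94 FPKM in Acta2-tdT saline mice and 48.9 to 134 in Acta2-tdT bleomycin mice, and Itgb2 was at 0.174 to 0.873 times Itgb1 there. In Pdgfra-tdT bleomycin mice Itgb2 was at 0.777 to 9.57 times Itgb1. The relatives summed to 0.163% of protein-coding FPKM in Pdgfra-tdT saline mouse 3 and 0.0191% to 0.0200% in the other 3 mice of its group, beside its endothelial genes.

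The members varied together from mouse to mouse inside groups. After the group mean was taken from scaled log2(FPKM + 1), the correlation of a member with the mean of the other 7 over 16 mice was 0.845 for Laptm5, 0.805 for Fcer1g, 0.800 for Tyrobp, 0.758 for Itgb2 and 0.740 for Coro1a. It was 0.642 for Ptprc, 0.494 for Itgam and 0.396 for Itgax. Across 4800 protein-coding genes the median correlation with the members was -0.031 and the 90th percentile 0.337. The 8 genes most like the members were Lgals3 (0.942), Ctss (0.937), Ctsh (0.907), Acp5 (0.891), Ccl6 (0.881), Trem2 (0.878), Spi1 (0.876) and Lyz2 (0.874). The points share a library and its scaling, so these are descriptions. Ctss, a cathepsin of antigen-presenting cells, was at 4.67 to 22.3 FPKM in Acta2-tdT saline mice, 294 to 1.36e+03 in Acta2-tdT bleomycin mice, 2.69 to 8.2 in Pdgfra-tdT saline mice and 20.4 to 270 in Pdgfra-tdT bleomycin mice. In Acta2-tdT mice it was higher with bleomycin on both scales (5.86 ± 0.60, and 2.91 ± 0.46 scaled), and in Pdgfra-tdT mice the difference was 4.62 ± 0.89 (adjusted p = 0.3614).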

How the data were processed

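The 16 tables hold FPKM per gene with lower and upper bounds, which the authors computed for each mouse with Cufflinks 2.1.1 after alignment to mm10 with TopHat2 2.1.1 and Bowtie2, and deposited without scaling between mice. Libraries were made by SmartSeq2, which does not keep strand, so overlapping genes cannot be told apart. Read depth is unknown, since FPKM hold no counts, and no counting interval was computed. The replicates of a group were separate mice.

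Rows were summed per Ensembl gene, and 15 genes whose FPKM were not marked as sound in all mice were left out of 49452. FPKM were used as deposited and after each mouse was scaled to the same sum over 21950 nuclear protein-coding genes. All genes that passed the filter were fitted with limma 3.58.1 (lmFit, eBayes with trend) in R 4.3.3 on log2(FPKM + 1), which understates changes of low genes, with Benjamini-Hochberg adjustment at 0.05 for genes that reached 1 FPKM in 4 or more mice of the fit. For the members this gives differences, SEs and counts of calls as a description. Values ± are a difference and its SE. The tests were fitted on all genes. Those between 2 groups were also run on simulated data, and the outcome is not given here. Tables and plots used Python 3.11.15, pandas 2.3.3, numpy 2.4.6 and matplotlib 3.10.9.

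The members and the 19 gene lists (176 symbols, 175 found) were chosen with earlier results of these data known, so no list is independent evidence. Named genes were the members, the first 3 genes of each list, the relatives of the members and the 8 genes most like them, and any other is named where a count called for it. Alternatives were a pseudocount of 0.1, no filter or a mean FPKM of at least 5, other scalings, eBayes without trend, all 16 mice in 1 fit, a replicate block and leaving out each mouse, and the 2 libraries with endothelial genes were left out together after the data were seen.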

Additional observations from a re-analysis of the deposited data

Results flagged for a closer look

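Ptprc was at 26.3 FPKM in Acta2-tdT bleomycin mouse 7 against 12.3 to 14.4 in the other 3 mice of its group, a gap of 0.849 of the group's range. Chance marks about 1 in 20 groups in this way, and on FPKM this mouse was also the highest of its group for the other 7 members. Scaled to the same protein-coding sum, Ptprc was at 2.965 in mouse 7 and at 3.065 in mouse 6 of this group. On that scale mouse 7 was therefore not the highest of its group for Ptprc.

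Col1a1 differed between the lines in its response to bleomycin, with an interaction of 7.62 ± 0.99 on the log2(FPKM + 1) scale (limma, adjusted p = 0.0001021) and 5.17 ± 0.69 after scaling. It was higher with bleomycin in 4 of 4 Acta2-tdT mice (7.62 ± 0.46) and differed by 0.00 ± 0.80 in Pdgfra-tdT mice. There it was at 0.353 to 3.65 FPKM with saline, at 13.3 FPKM in bleomycin mouse 5, a library with the endothelial genes, and at 0.296 to 0.875 in bleomycin mice 6 to 8. In all 4 of these bleomycin mice the 8 leukocyte genes summed to more than the 14 mesenchymal genes, and the part of this in the difference was not tested.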

How the results depend on the processing

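The count of members called and their median log2 difference moved with the settings as follows. Between the lines with saline 4 were called, against 2 after scaling, 2 with a mean FPKM of at least 5, 2 with all 16 mice in 1 fit and 0 without a filter (of all genes 237, 279, 49, 126 and 59 were called in these fits), and the median of 1.16 was 2.05 with a pseudocount of 0.1. Between the lines with bleomycin 8 became 0 after scaling, 3 with all genes scaled to the same sum and 2 with quantile normalization, and the median of 2.71 became 0.29, 1.19 and 1.15. Of all 11995 genes 9553 were called, and 4012, 7079 and 6466 under these scalings, with medians of 1.81, 0.14, 0.68 and 0.96. With bleomycin in Acta2-tdT mice 8 became 2 after scaling, and the median of 3.01 became 0.31, 1.19 and 1.49 under the same 3 scalings, where the median over all genes went from 1.76 to -0.02, 0.54 and 0.95. For the interaction 2 became 0, 0 and 1, with medians of -0.88, 0.00 and -0.37 in place of 1.41 (over all genes -0.25, 0.13 and 0.23 in place of 1.05, with 369, 1664 and 1591 of 16605 called in place of 6605). With a pseudocount of 0.1 or a mean FPKM of at least 5, 1 was called. The calls over all genes under those settings are not given here, so nothing is read from that count. Scaling reversed Itgb2 (-0.17) and Itgax (-0.33) between the lines with bleomycin, Tyrobp (-0.28) and Ptprc (-0.13) in Acta2-tdT mice and the called interaction of Ptprc (-0.41, and -0.04 with quantile normalization). The interactions of Fcer1g, Itgb2, Itgax, Laptm5 and Coro1a, which were not called, also turned negative with scaling. The cause was not tested. With all genes in the denominator the mean shares of the members became 0.0747% (saline) and 0.187% (bleomycin) in Acta2-tdT mice, and 0.00949% and 0.0742% in Pdgfra-tdT mice.

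Leaving out 1 mouse at a time gave 0 to 6 calls between the lines with saline, 4 to 8 between the lines with bleomycin, 6 to 8 in Acta2-tdT mice, 0 to 2 in Pdgfra-tdT mice and 1 to 3 for the interaction. Of all genes these fits called 14 to 2141, 6111 to 9952, 6973 to 10143, 0 to 69 and 3739 to 9166. The interaction count was 1 without Acta2-tdT bleomycin mouse 6, 7 or 8 and 3 without Pdgfra-tdT bleomycin mouse 5. With mouse numbers as a replicate block, a paired fit called 0 members between the lines with saline and 6 with bleomycin, where 36 and 9379 of all genes were called, with the medians as before. The numbers mark no shared litter or day, and same-numbered mice correlated from -0.086 to 0.157 with saline and from -0.307 to 0.071 with bleomycin, so the block only shares a number. A value below the background gauge of its mouse, 0.348 to 2.64 FPKM, cannot be told from background.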
